A study of Mus musculus with 47 samples.

Results

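Hippocampal RNA from mice given 4 weeks of normal diet after 12 weeks of cuprizone was compared with hippocampal RNA from naive mice, to ask what still differs from untreated tissue at this stage of recovery. The 12+4wk group held 3 libraries and the naive group 3, chosen by the tissue and treatment period in their labels, so 6 of the 47 libraries of the series were compared. All mice were wild type C57BL/6 animals. The 12+4wk mice had received cuprizone (CPZ), a copper chelator given in chow, for 12 weeks and then normal chow for 4 weeks, and the labels give them no age. The naive mice were untreated and labelled as 8 months old, and the paper calls its naive controls age-matched. Its age at the start of feeding would make the 12+4wk mice younger than 8 months. Age and cuprizone history cannot be told apart. The labels name 2 females and 1 male in each group. The other 7 hippocampal libraries, taken at 12 weeks of cuprizone or after 8 or 12 weeks of recovery, entered the fit to help set the spread between replicates. Their group differences from naive are given in places beside the main comparison.

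Cuprizone kills oligodendrocytes, the cells that wrap axons in myelin. When feeding stops, oligodendrocyte progenitors divide, differentiate and make new myelin, while microglia clear debris and astrocytes stay reactive for a time. The hippocampus holds the dentate gyrus, where granule neurons lie and new neurons form throughout life, and the CA fields of pyramidal neurons, which are set among inhibitory interneurons and borders of ependyma and choroid plexus.

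The values were log2 expression that the authors had centred gene by gene over 3 brain regions, so a value is a distance from that shared centre and levels cannot be compared between genes. In all 6 libraries the hippocampal marker lists lay above that centre. List medians were 0.41 to 0.71 for dentate granule genes and 0.67 to 0.84 for CA1 genes. For CA2 and CA3 genes they were 0.45 to 0.52, while striatal markers lay between −1.11 and −0.78. With no read counts in the tables, the sequencing depth of each single library was unknown. The paper gives only a range of reads per sample. The labels do not say whether the replicates came from separate mice, so p-values measure the spread between these libraries.

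The sex-linked genes did not match the labels in 8 of the 13 hippocampal libraries. Xist, the RNA of the inactive X chromosome, and the mean of the Y-linked genes Ddx3y, Eif2s3y, Kdm5d and Uty lay between the male and female levels of cortex and corpus callosum. Xist was −1.23, 2.38 and −1.86 in 12+4wk replicates 1 to 3, against 2.48, 2.49 and −2.03 in naive replicates 1 to 3. The Y-linked mean was 0.58, −1.65 and 0.69 in the 12+4wk libraries, against −1.62, −1.66 and 0.79 in the naive libraries. Cortical and callosal libraries labelled male had Xist between −5.49 and −3.99 and a Y-linked mean of 2.79 to 3.33 (9 libraries), and those labelled female 0.76 to 3.18 and −1.72 to −0.19 (18 libraries). Intermediate values thus marked 2 of 3 libraries at 12+4 weeks (replicates 1 and 3) and 1 of 3 naive libraries (replicate 3), and results are also given without these libraries, with 1 library at 12+4 weeks and 2 naive libraries left. Of the values deposited for hippocampus 43.98% had the last digit that the mean of a pair of equally rounded numbers would have. The same share was found for corpus callosum, against 0% for cortex. Cortical and callosal libraries set the male and female ranges, so none of them could count as intermediate. The upper female bound of the Y-linked mean, −0.19, came from callosal 12+4wk replicate 2, labelled female with an Xist of 2.71.

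**Figure D1:**
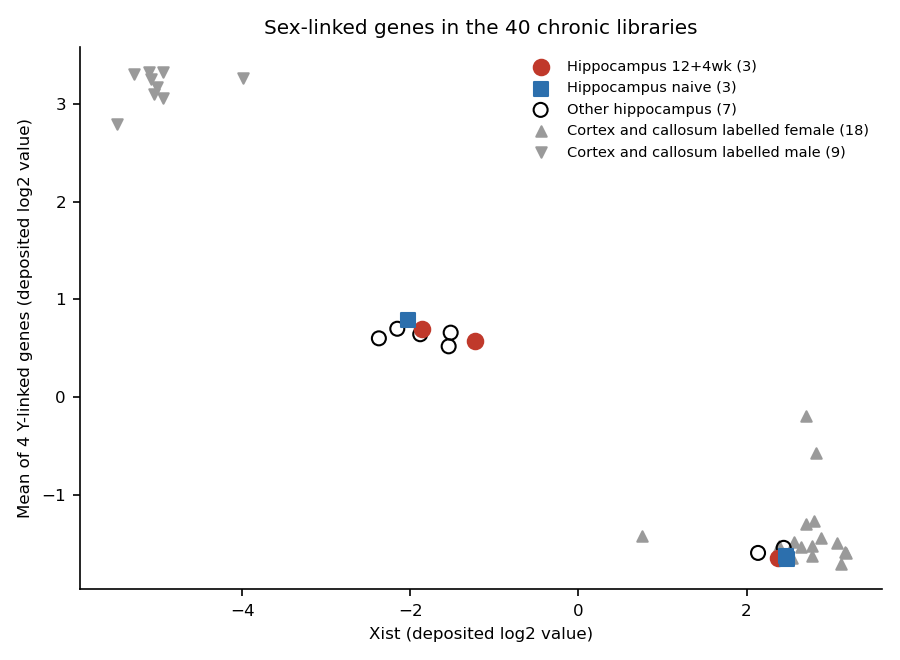
Xist against the mean of 4 Y-linked genes (Ddx3y, Eif2s3y, Kdm5d, Uty), both as deposited log2 values, 1 point per chronic library. Red circles are the 3 hippocampal 12+4wk libraries and blue squares the 3 naive ones; 2 red and 1 blue point lie between the male cluster at upper left and the female cluster at lower right.

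Between 12+4 weeks and naive hippocampus 1 gene passed the threshold of an adjusted p below 0.05. Rnf122, which encodes a RING finger ubiquitin ligase, rose by 0.68 ± 0.071 log2 units (± standard error, adjusted p = 0.0241), and no gene fell. Of 17852 genes tested, 0.0056% were called higher and 0% lower by limma. At an unadjusted p below 0.05 there were 569 higher genes (3.19%) and 651 lower genes (3.65%), 1220 in all. The 12+4wk libraries lay all above the naive ones in 6.6% of genes and all below them in 8%. Differences were small throughout, with a median absolute log2 difference of 0.062 and 26 genes past 1, and the median over all genes was −0.01.

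Rnf122 (ENSMUSG00000039328.11, GRCm38 chromosome 8, 31111820 to 31131482, plus strand, protein coding) stood at 0.09, 0.28 and 0.21 in the 12+4wk libraries, against −0.48, −0.47 and −0.50 in the naive libraries. The groups were far apart, at 0.19 ± 0.092 in 12+4wk libraries and −0.48 ± 0.016 in naive libraries (SD, n = 3 each). The 95% confidence interval of the difference ran between 0.52 and 0.83. In the same fit the difference from naive was 0.22 at 12 weeks of cuprizone (adjusted p = 0.368), 0.23 after 8 weeks of recovery (0.323) and 0.38 after 12 weeks of recovery (0.0364), all against the same naive libraries. The call depended on which libraries set the spread, with an adjusted p of 0.132 from the 6 compared libraries alone and 1 from all 40 chronic libraries. Without the libraries with intermediate sex-linked genes Rnf122 still differed by 0.75 but was not called (adjusted p = 0.244). It was also not called when 12+4wk replicate 2 or 3 or any naive replicate was left out, at differences of 0.64 to 0.69 and adjusted p between 0.0885 and 0.223.

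The genes that came next did not pass. Plk5, a polo-like kinase gene of the dentate marker list (GRCm38 chromosome 10, 80356459 to 80365489, plus strand), stood at 0.66, 0.61 and 0.46 in 12+4wk libraries, against 0.13, 0.08 and 0.17 in naive libraries. Its difference of 0.45 ± 0.061 had an adjusted p of 0.0991. After a correction for transcript length and GC content Plk5 passed (0.48, adjusted p = 0.0223). Gimap6, a GTPase gene best known from lymphocytes (chromosome 6, 48701582 to 48708225, minus strand), stood at −0.23, −0.38 and −0.24 in 12+4wk libraries, against 0.17, 0.22 and 0.14 in naive libraries (−0.47 ± 0.060, adjusted p = 0.0813). Slc25a34, a mitochondrial carrier gene (chromosome 4, 141618824 to 141623821, minus strand), stood at −0.16, −0.36 and −0.26 in 12+4wk libraries, against 0.25, 0.27 and 0.09 in naive libraries (−0.46 ± 0.066, adjusted p = 0.112). None of these 3 genes had overlapping groups.

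Among the 10 genes named on the higher side, 2 serve motile cilia or centrioles. Dnaaf3, an assembly factor of ciliary dynein arms, differed by 0.44 and Ccdc146, a centriolar protein gene, by 0.40. Zic2, a zinc finger factor of neural progenitors, had 0.61, 0.64 and 0.57 in 12+4wk libraries, against −0.21, −0.11 and 0.23 in naive libraries (0.64 ± 0.13). The others were Lect1 (0.70), which encodes chondromodulin, Zfp366 (0.44), a transcription regulator gene, S1pr3 (0.32), a sphingosine-1-phosphate receptor gene, Mamdc2 (0.42), and Spata13 (0.50), an exchange factor gene for small GTPases. Their adjusted p lay between 0.252 and 0.345.

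On the lower side Fcrls, an Fc receptor-like gene typical of resident microglia, stood at −0.16, −0.12 and −0.20 in 12+4wk libraries, against 0.09, 0.24 and 0.11 in naive libraries (−0.31 ± 0.055, adjusted p = 0.252). Cort, which encodes the interneuron peptide cortistatin, stood at 0.28, 0.07 and −0.11 in 12+4wk libraries, against 0.64, 0.75 and 0.47 in naive libraries (−0.54 ± 0.10, adjusted p = 0.316). The cytochrome P450 genes Cyp2j9 (−0.32) and Cyp4f15 (−0.42) and the acyl-CoA thioesterase gene Acot11 (−0.46) act on fatty acids. Tox2, a gene of the HMG-box family, differed by −0.30, Fam159b by −0.36 and the uncharacterised 2900052N01Rik by −0.40. All of these had adjusted p between 0.252 and 0.316.

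**Figure D2:**
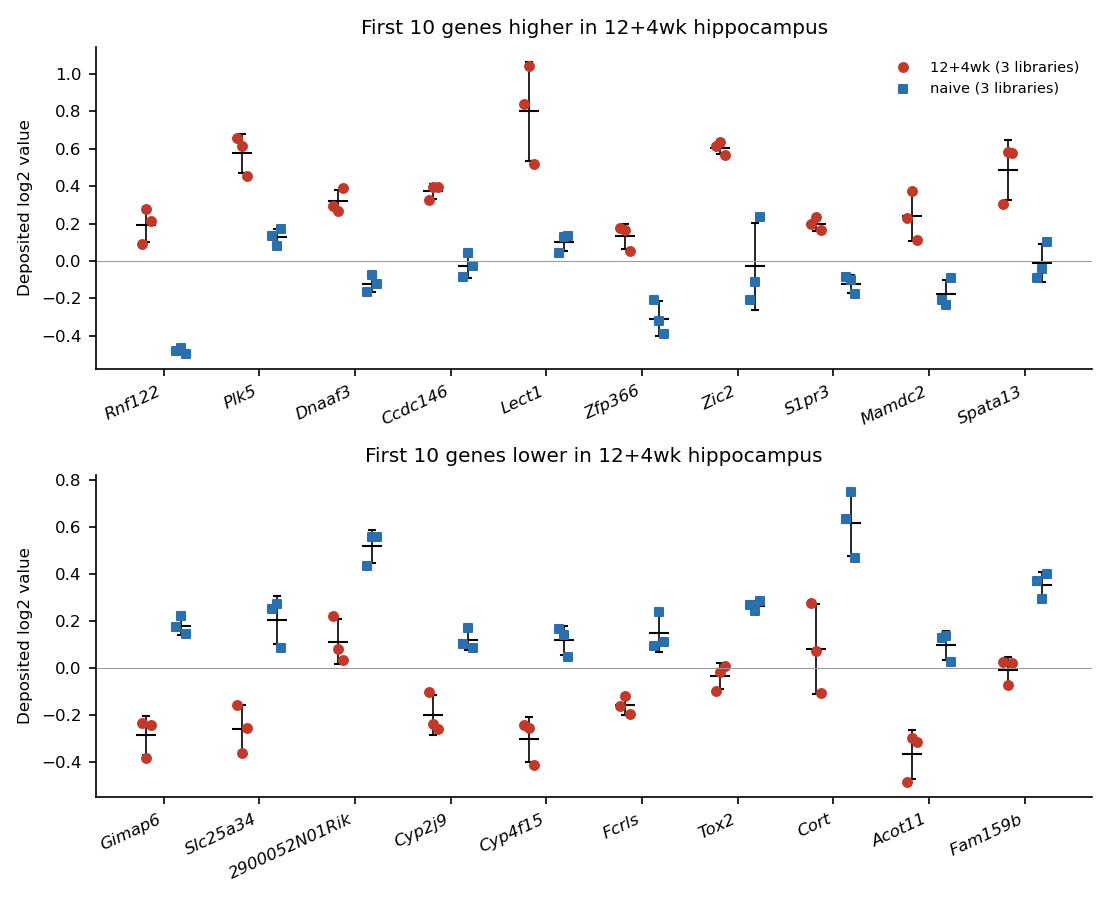
Deposited log2 value of the 10 genes named on each side, 1 point per library, 12+4wk in red at the left and naive in blue at the right of each gene. Black bars are the mean ± SD of 3 libraries, and no pair of groups overlaps; Rnf122 alone passed the adjusted threshold.

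**Figure D3:**
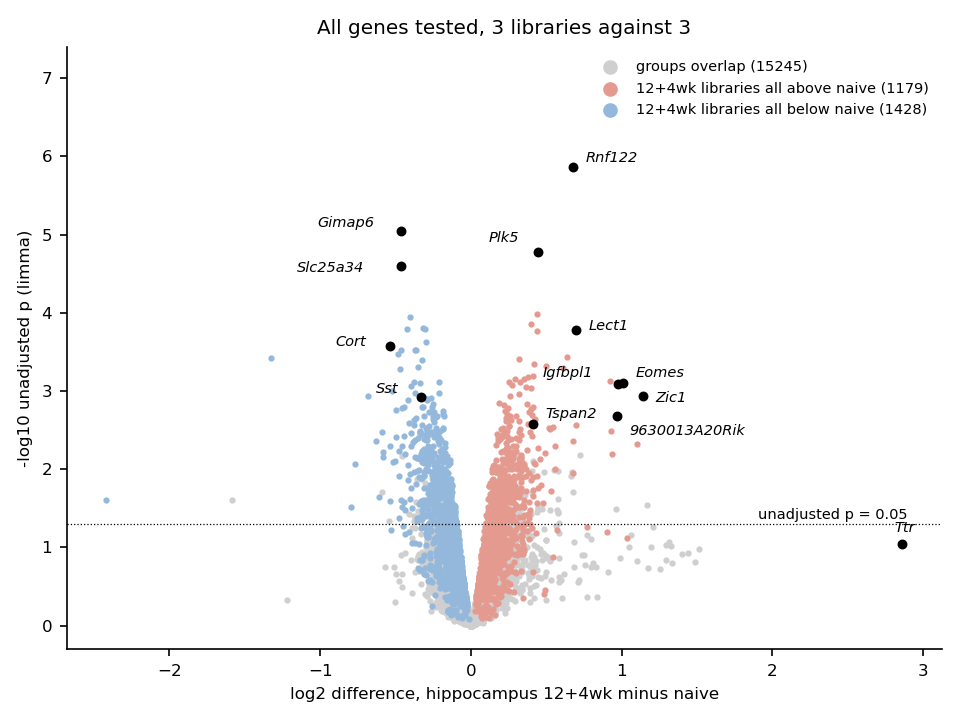
Log2 difference between 12+4wk and naive hippocampus against −log10 of the unadjusted limma p for 17852 genes, coloured by whether the 3 libraries of each group overlap. Rnf122 is the uppermost point, and Ttr has the largest difference, 2.86, with overlapping groups.

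Myelin genes mostly had positive differences at 12+4 weeks, with no member past the threshold. Of 31 mature oligodendrocyte and myelin genes tested 27 had a positive difference, 11 had all 12+4wk libraries above naive (35.5%, beside 6.6% of all genes) and 1 had them all below. The list median was 0.19, beside −0.01 over all genes. Over the members the library medians were −0.19, −0.02 and −0.25 in 12+4wk libraries, against −0.50, −0.28 and −0.27 in naive libraries. The groups did not overlap, though 12+4wk replicate 3 lay close to naive replicates 2 and 3. In bulk tissue, a change in the number of cells of a type and a change in RNA per cell cannot be told apart.

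Among the myelin genes the lowest p belonged to Tspan2, a tetraspanin gene of oligodendrocytes, with −0.11, −0.06 and −0.19 in 12+4wk libraries, against −0.57, −0.56 and −0.45 in naive libraries (0.41 ± 0.11, adjusted p = 0.465). Cldn11, the tight junction claudin of myelin, had 0.01, 0.01 and −0.24 in 12+4wk libraries, against −0.51, −0.52 and −0.44 in naive libraries (0.42 ± 0.13, adjusted p = 0.534). In both genes the 12+4wk libraries lay above every naive library. Mog, the myelin surface glycoprotein, differed by 0.39 ± 0.15 and the lipid raft protein gene Mal by 0.32 ± 0.18, also without overlap. Mag, the glycoprotein facing the axon, differed by 0.31 ± 0.16 and Mbp, which compacts the sheath, by 0.20 ± 0.17, and both overlapped. For Mbp the values were −0.04, 0.03 and −0.37 in 12+4wk libraries, against −0.50, −0.25 and −0.24 in naive libraries. Adjusted p lay between 0.465 and 0.892 for these 6 genes.

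At 12 weeks of cuprizone the same list had a median of −0.49 against naive, and at 12+8 and 12+12 weeks −0.01 and 0.57, each set against the same naive libraries. Mal stood at −0.85 against naive at 12 weeks of cuprizone and, in the order of recovery, at 0.32, 0.09 and 0.81. These values did not follow the length of recovery. Single libraries moved the 12+4wk list median, which was 0.11 without 12+4wk replicate 2 and 0.12 without naive replicate 1. It was 0.32 without the libraries with intermediate sex-linked genes and 0.11 with that status as a covariate.

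Newly formed oligodendrocyte genes were also mostly positive. Of 12 tested, 11 were positive. On the higher side 5 had no overlap with naive (41.7%, beside 6.6% of all genes), and none on the lower side. The list median was 0.21 (0.25 without the libraries with intermediate sex-linked genes). The long noncoding RNA 9630013A20Rik, a marker of differentiating oligodendrocytes, had 0.52, 0.29 and 0.01 in 12+4wk libraries, against −0.72, −0.58 and −0.78 in naive libraries (0.97 ± 0.24, adjusted p = 0.449). The groups lay well apart, and the gene stood at 1.09 at 12 weeks, 0.41 at 12+8 weeks and 0.48 at 12+12 weeks against the same naive libraries. It is annotated as antisense on chromosome 14 (GRCm38, 84458639 to 84476424, minus strand), and whether the counting used strand is not given in the sources used here. Cnksr3, a scaffold protein gene, had −0.03, −0.06 and −0.09 in 12+4wk libraries, against −0.36, −0.47 and −0.31 in naive libraries (0.32 ± 0.081, adjusted p = 0.453). Gpr17, the receptor gene of committed progenitors, differed by 0.25 ± 0.083, also without overlap. Another member, Tcf7l2, is also on the list of thalamic dissection markers below.

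Progenitor markers had smaller differences. Of 14 oligodendrocyte progenitor genes, with a list median of −0.07, none lay wholly above naive and 2 lay wholly below (14.3%, beside 8% of all genes). These were Pdgfra, the growth factor receptor that defines the cells (−0.18 ± 0.072), and the proteoglycan gene Cspg4 (−0.16 ± 0.055). Cell cycle genes were split, 2 of 15 above and 1 of 15 below (13.3% and 6.67%, beside 6.6% and 8% of all genes). Their median was 0.05, and Plk1 (−0.17) and Aurkb (0.24), both mitotic kinases, overlapped between the groups.

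The promoters of Plk5 and 9630013A20Rik are shown because these genes had the lowest p of the dentate and the newly formed oligodendrocyte lists. The windows are the 300 bases around the RefSeq start (build GRCm38.p6), 5′ to 3′ on the gene's strand, and capitals mark matches to 4 motifs searched on both strands, the TATA box (TATAAA), the CCAAT box (CCAAT), the GC box (GGGCGG) and the E-box CAGCTG.
Plk5, chr10:80356209-80356508, plus strand: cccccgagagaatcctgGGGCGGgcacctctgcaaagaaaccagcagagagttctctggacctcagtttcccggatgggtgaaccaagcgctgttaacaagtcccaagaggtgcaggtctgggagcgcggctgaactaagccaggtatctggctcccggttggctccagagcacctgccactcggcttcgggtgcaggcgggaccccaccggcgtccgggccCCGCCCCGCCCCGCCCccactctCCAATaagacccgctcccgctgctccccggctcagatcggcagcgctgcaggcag
9630013A20Rik, chr14:84476375-84476674, minus strand: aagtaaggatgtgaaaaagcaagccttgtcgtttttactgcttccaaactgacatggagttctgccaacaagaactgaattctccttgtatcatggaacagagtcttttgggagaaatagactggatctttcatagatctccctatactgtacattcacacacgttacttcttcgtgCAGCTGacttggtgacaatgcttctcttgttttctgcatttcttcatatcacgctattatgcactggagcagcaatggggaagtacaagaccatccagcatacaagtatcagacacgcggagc
The Plk5 window held 4 GC boxes, neighbouring ones overlapping, and 1 CCAAT box at 66.7% GC, and the 9630013A20Rik window 1 CAGCTG E-box at 42.7% GC. Over all 32851 promoters of the table the median was 52.7% GC, 35.7% held a GC box, 37.4% a CCAAT box, 16.3% the E-box and 13.6% a TATA box. No value here measures activity at these windows.

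Dentate granule genes formed the list with the largest share apart from naive. All 14 had a positive difference, and in 10 (71.4%, beside 6.6% of all genes) the 12+4wk libraries lay above every naive library, with none below. The list median was 0.24, and the library medians were 0.61, 0.69 and 0.71 at 12+4 weeks, against 0.49, 0.45 and 0.41 in naive hippocampus, without overlap. Beside Plk5, Dock10, an exchange factor gene for small GTPases, had 0.30, 0.32 and 0.37 in 12+4wk libraries, against −0.02, −0.02 and 0.07 in naive libraries (0.32 ± 0.10, adjusted p = 0.545). Prox1, the transcription factor that sets granule cell identity and that was added after its values were seen, had 0.96, 1.04 and 1.25 in 12+4wk libraries, against 0.65, 0.78 and 0.63 in naive libraries (0.39 ± 0.18, adjusted p = 0.731). Both differences were without overlap. Plk5 apart, no member had an adjusted p below 0.545.

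The dentate list also stood at 0.27 against naive at 12 weeks, but at −0.33 at 12+8 weeks and −0.76 at 12+12 weeks, where CA1 genes also stood at −0.93, with 2 libraries in each of these groups that lay apart from each other. Without the libraries with intermediate sex-linked genes its 12+4wk median was 0.15, and under quantile normalization 0.16. The CA lists were nearer to 0. CA1 genes had a median of −0.09, with 1 of 12 wholly above and 1 wholly below (8.33% each, beside 6.6% and 8% of all genes). The lowest p was that of Mpped1 (−0.23 ± 0.062). CA2 and CA3 genes had a median of 0.09, with 2 of 14 wholly above (14.3%, beside 6.6% of all genes). Among those 2 was Cacng5 (0.48 ± 0.19), a regulatory subunit gene of AMPA receptors, while Plagl1 stood at −0.24.

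Genes of immature neurons were mixed. Of 14 tested, 5 lay wholly above (35.7%, beside 6.6% of all genes) and 1 wholly below. The list median was 0.13 (0.09 without the libraries with intermediate sex-linked genes). Eomes, the transcription factor of intermediate progenitors (chromosome 9, 118478212 to 118486132, plus strand), had 1.05, 0.77 and 0.76 in 12+4wk libraries, against −0.28, −0.36 and 0.17 in naive libraries (1.01 ± 0.22, adjusted p = 0.369). Igfbpl1, a secreted protein gene of newborn neurons, had 0.50, 0.71 and 0.97 in 12+4wk libraries, against −0.43, −0.47 and 0.15 in naive libraries (0.97 ± 0.21, adjusted p = 0.369). In both genes naive replicate 3 lay nearest to the 12+4wk libraries. Dcx, the microtubule protein gene that marks newborn neurons, had a difference of −0.12 with overlapping groups, and was named after its values were seen. Another member, Calb2, is also on the list of thalamic dissection markers below.

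Dissection markers of neighbouring regions also differed between libraries, and their part in the list results was not tested. All 10 thalamic markers had positive differences (median 0.28), and 2 lay wholly above naive (20%, beside 6.6% of all genes). Without 12+4wk replicate 3 the list median was 0.46. Their library medians were 0.27, 0.29 and −0.20 in 12+4wk libraries, against −0.19, −0.18 and −0.15 in naive libraries, so 12+4wk replicate 3 lay with the naive libraries. Zic1, a zinc finger factor of thalamus and septum, had 0.73, 0.93 and 0.82 in 12+4wk libraries, against −0.40, −0.71 and 0.17 in naive libraries (1.14 ± 0.26, adjusted p = 0.412), and Prkcd, a protein kinase C gene of thalamic neurons, differed by 0.90 ± 0.44. Neocortical and entorhinal markers had a median of −0.16, with 11 of 12 negative and 3 wholly below naive (25%, beside 8% of all genes). Ctgf, a matrix protein gene of the deepest cortical layer, had −1.28, −1.23 and −1.09 in 12+4wk libraries, against −0.49, −0.69 and −0.65 in naive libraries (−0.59 ± 0.16). Striatal markers had a median of −0.0033, with Rarb, a retinoic acid receptor gene, at −0.23 and Ido1, a tryptophan-degrading enzyme gene, at 0.14.

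Choroid plexus genes separated libraries rather than groups. The 10 choroid plexus epithelial genes of the fixed list, divided from the rest after their values were seen, had library medians of −0.02, 1.65 and 3.31 in 12+4wk libraries, against −0.13, −0.16 and 1.35 in naive libraries. Naive replicates 1 and 2 and 12+4wk replicate 1 thus lay near 0, and the other 3 libraries far above. Ttr, the transthyretin gene secreted by choroid plexus, had 1.35, 3.84 and 6.80 in 12+4wk libraries, against 0.20, −0.11 and 3.31 in naive libraries (2.86 ± 1.55, adjusted p = 0.793). None of the 10 had non-overlapping groups, and the median of the whole list of 15 was 1.10.

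The 4 motile cilia genes of the list were also set apart after their values were seen, so that their positions are a description only. They lay wholly above naive, with differences of 0.25 to 0.52. Foxj1, the master regulator of motile cilia in ependyma, had 0.27, 0.46 and 0.59 in 12+4wk libraries, against −0.15, −0.08 and −0.0019 in naive libraries (0.52 ± 0.14, adjusted p = 0.465). Tctex1d4, a dynein light chain gene, had 0.53, 0.29 and 0.44 in 12+4wk libraries, against −0.08, −0.02 and 0.13 in naive libraries (0.41 ± 0.099, adjusted p = 0.441). Dnaaf3 and Ccdc146 above belong to the same organelle system. The median of the 4 genes was 0.48, 0.47 and 0.51 in 12+4wk libraries, against 0.01, 0.14 and 0.14 in naive libraries, so that 12+4wk replicate 1, low in epithelial genes, was not low in these. The medians of the other 7 hippocampal libraries ran between −0.20 and 0.94 and covered both groups, and at 12+12 weeks Foxj1 stood 0.79 and Tctex1d4 0.59 above naive.

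**Figure D4:**
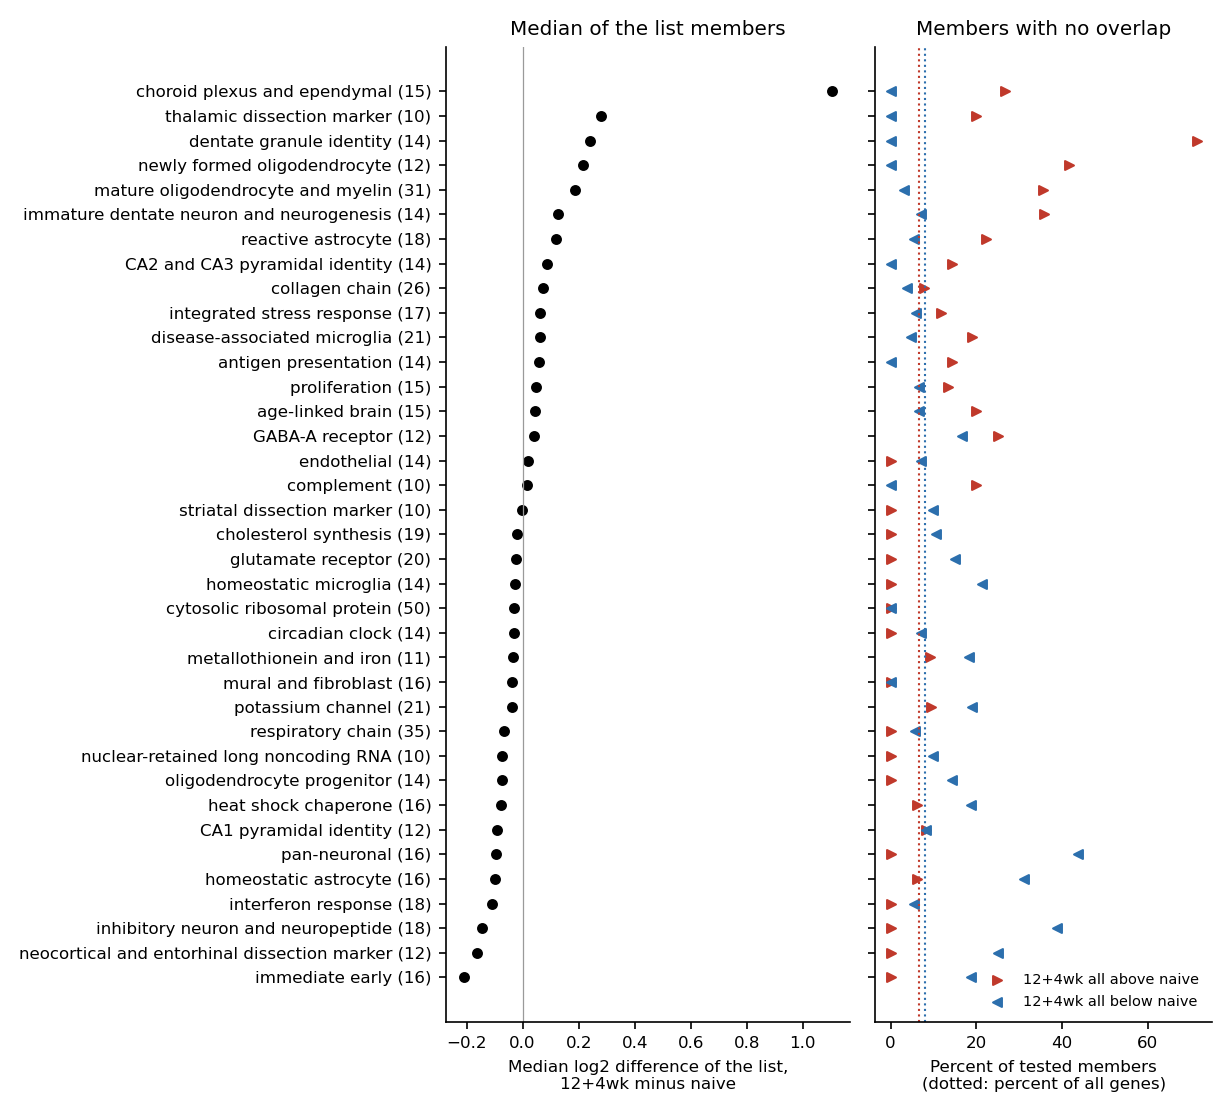
Left, median log2 difference (12+4wk minus naive) of each gene list, with the number of genes tested in brackets; right, percent of members whose 12+4wk libraries all lay above (red) or below (blue) the naive ones. Dotted lines mark 6.6% and 8% of all genes, and the dentate granule list reaches 71.4% on the higher side.

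Genes of the inhibitory neuron and neuropeptide list mostly had negative differences. Of 18 inhibitory neuron and neuropeptide genes 16 had negative differences, 7 lay wholly below (38.9%, beside 8% of all genes) and none wholly above, with a median of −0.14 (−0.17 without the libraries with intermediate sex-linked genes). The library medians were −0.17, −0.09 and −0.06 in 12+4wk libraries, against 0.06, 0.07 and 0.06 in naive libraries. Sst, the somatostatin gene, had 0.30, 0.12 and 0.06 in 12+4wk libraries, against 0.50, 0.56 and 0.41 in naive libraries (−0.33 ± 0.075, adjusted p = 0.412). Lhx6, the transcription factor of interneurons born in the medial ganglionic eminence, differed by −0.24 ± 0.062 (adjusted p = 0.465), and Reln, which encodes reelin and is also on the neocortical and entorhinal list, by −0.26 ± 0.093. All 3 had no overlap, as Cort above, a close relative of Sst. Their adjusted p lay between 0.316 and 0.62. Gad1 and Gad2, the GABA-synthesising enzymes of all interneurons, had differences of −0.10 and −0.11 with overlapping groups, and were named after their values were seen.

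All 16 pan-neuronal genes had negative differences, with 7 wholly below naive (43.8%, beside 8% of all genes) and a median of −0.09. Map2, the dendritic microtubule protein gene, had −0.28, −0.21 and −0.10 in 12+4wk libraries, against −0.01, −0.0036 and −0.04 in naive libraries (−0.17 ± 0.052, adjusted p = 0.514). Gap43, the growth cone protein gene, had −0.34, −0.39 and −0.24 in 12+4wk libraries, against −0.08, −0.09 and −0.06 in naive libraries (−0.24 ± 0.079, adjusted p = 0.564). Both were without overlap. Receptor and channel lists were near 0, with medians of −0.02 for 20 glutamate receptor genes, 0.04 for 12 GABA-A receptor genes and −0.04 for 21 potassium channel genes. The members of lowest p were the kainate receptor gene Grik1 (−0.27) and the NMDA receptor gene Grin2b (−0.31), the GABA-A subunit genes Gabra3 (−0.36) and Gabrg1 (−0.15), and the voltage-gated channel genes Kcnb2 (0.20) and Kcnd2 (0.17). Grin2b overlapped between the groups, and the other 5, picked for low p, did not. Of glutamate receptor genes 0% lay wholly above naive and 15% wholly below. For GABA-A receptor genes these shares were 25% and 16.7%, for potassium channel genes 9.52% and 19%, and for all genes 6.6% and 8%.

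Immediate early genes, which neurons induce within minutes of activity, all had negative differences, 16 of 16. Their median was −0.21, and 3 lay wholly below naive (18.8%, beside 8% of all genes). Npas4, a transcription factor induced by calcium entry, had −0.80, −0.31 and −0.30 in 12+4wk libraries, against 0.01, 0.21 and −0.19 in naive libraries (−0.48 ± 0.14, adjusted p = 0.514). Fosb, an AP-1 subunit gene, had −0.72, −0.88 and −0.60 in 12+4wk libraries, against −0.13, −0.05 and −0.48 in naive libraries (−0.51 ± 0.16, adjusted p = 0.53). In both, 1 naive library lay close to the 12+4wk range. Without the libraries with intermediate sex-linked genes the median was −0.32, and without 12+4wk replicate 3 it was −0.13. The same list was at −0.31 against naive at 12 weeks, 0.05 at 12+8 weeks and −0.08 at 12+12 weeks.

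Astrocyte genes went both ways. Of 16 homeostatic astrocyte genes 13 had negative differences, with a median of −0.10. Of the 16, 5 lay wholly below naive (31.2%, beside 8% of all genes) and 1 wholly above. The list median was −0.06 without the libraries with intermediate sex-linked genes, −0.06 without 12+4wk replicate 3 and −0.15 without 12+4wk replicate 1. Aldoc, the astrocyte aldolase gene, had 0.03, −0.12 and −0.27 in 12+4wk libraries, against 0.17, 0.22 and 0.14 in naive libraries (−0.30 ± 0.078, adjusted p = 0.465). Glul, the glutamine synthetase that clears glutamate, had −0.17, −0.19 and −0.30 in 12+4wk libraries, against 0.0028, 0.0048 and −0.02 in naive libraries (−0.21 ± 0.060, adjusted p = 0.497). The groups were apart in both. Of 18 reactive astrocyte genes 13 were positive and 4 lay wholly above (22.2%, beside 6.6% of all genes), S1pr3 among them. Cd44, a hyaluronan receptor gene, differed by −0.18, and the list median was 0.12. The reactive median was 0.01 without the libraries with intermediate sex-linked genes and 0.06 without 12+4wk replicate 1.

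Microglial list medians were close to 0. Homeostatic microglia genes had a median of −0.03, and 3 of 14 lay wholly below naive (21.4%, beside 8% of all genes). These were Fcrls, the membrane protein gene Tmem119 (−0.19 ± 0.069) and Selplg, a selectin ligand gene (−0.21, named after its values were seen). The receptor genes Csf1r (−0.0012) and Cx3cr1 (−0.00027), also named after their values were seen, were nearest to no difference. Disease-associated microglia genes had a median of 0.06, with 4 of 21 wholly above (19%, beside 6.6% of all genes) and 1 wholly below. Itgax, the integrin gene that marks these cells, had 0.21, −0.19 and −0.52 in 12+4wk libraries, against −0.63, −0.15 and −0.24 in naive libraries (0.18 ± 0.23). Clec7a, a pattern receptor gene, had 0.49, −0.28 and −0.08 in 12+4wk libraries, against −0.30, 0.01 and −0.32 in naive libraries (0.25 ± 0.23), and Cst7, a cystatin gene, differed by −0.06 ± 0.22. All 3 overlapped, and 12+4wk replicate 1 had the highest value of each. At 12 weeks of cuprizone they stood at 0.90, 0.67 and 0.44 against the same naive libraries. The members that lay wholly above at 12+4 weeks included Lgals3, which encodes galectin 3 (0.34 ± 0.12, adjusted p = 0.592), and Cd9, a tetraspanin gene that oligodendrocytes also express (0.32 ± 0.088, adjusted p = 0.472). Spp1, the osteopontin gene, added after its values were seen, lay wholly below (−0.46 ± 0.18).

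Other immune lists held few genes apart from naive. Antigen presentation genes had a median of 0.06 and 2 of 14 wholly above (14.3%, beside 6.6% of all genes). The class II genes H2-Eb1 and Cd74 stood at 0.38 and 0.48. The 18 interferon response genes, 16 of them with negative differences, had a median of −0.11. Wholly below lay 1 of them (5.56%, beside 8% of all genes), Ifit2 at −0.21. Complement genes had a median of 0.02, with 2 of 10 wholly above (20%, beside 6.6% of all genes). C3 (0.32 ± 0.12) was among those 2, and C1qb stood at −0.11. In the age-linked list, with a median of 0.05, Cd9 and Gpr17 had the lowest p.

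Stress and metabolic lists had medians close to 0. The integrated stress response list had a median of 0.06, with Vldlr, a lipoprotein receptor gene, at 0.19 and Ddit4, an inhibitor of mTOR signalling, at −0.20. Heat shock chaperones had a median of −0.08 and 3 of 16 wholly below (18.8%, beside 8% of all genes). Hspa8 stood at −0.12, Hsph1 at −0.15 and the inducible Hspa1b at −0.23 ± 0.14. Cholesterol synthesis genes had a median of −0.02, with the squalene synthase gene Fdft1 at −0.12. For 35 respiratory chain genes the median was −0.07, with Uqcrq at −0.14 and Cox5b at −0.19. For 50 ribosomal protein genes it was −0.03, with Rpl26 at −0.16 and Rpl34 at −0.13. Negative differences were found in 34 respiratory chain genes, 43 ribosomal protein genes and 14 heat shock chaperones. Wholly below naive lay 5.71% of respiratory chain and 0% of ribosomal protein genes, beside 8% of all genes. The 11 metallothionein and iron genes had a median of −0.04, with Mt2 at −0.33 and the iron reductase gene Steap3 at −0.18.

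Among the vascular and matrix lists, endothelial genes had a median of 0.02, which was 0.18 without the libraries with intermediate sex-linked genes, with the tight junction gene Cldn5 at 0.32 and the lipid transporter gene Mfsd2a at −0.29, and mural and fibroblast genes −0.04, with the pericyte receptor gene Pdgfrb at 0.11 and Myl9 at 0.09. Of 26 collagen genes 2 lay wholly above (7.69%, beside 6.6% of all genes), Col6a3 (0.93 ± 0.28) and Col15a1 (0.23 ± 0.075), and 1 wholly below, Col6a2 (−0.27, named after its values were seen), and the median was 0.07. Circadian clock genes had a median of −0.03, with Per1 at −0.15 and Ciart at −0.16. Nuclear-retained noncoding RNAs were at −0.07, with Rian at −0.14, and the 3 blood genes tested at −0.02. The uncharacterised RNAs A230009B12Rik (−0.0052 ± 0.13) and A330015K06Rik (−0.16 ± 0.079) and the oxidoreductase domain gene Noxred1 (−0.21 ± 0.13) overlapped between the groups.

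**Figure D5:**
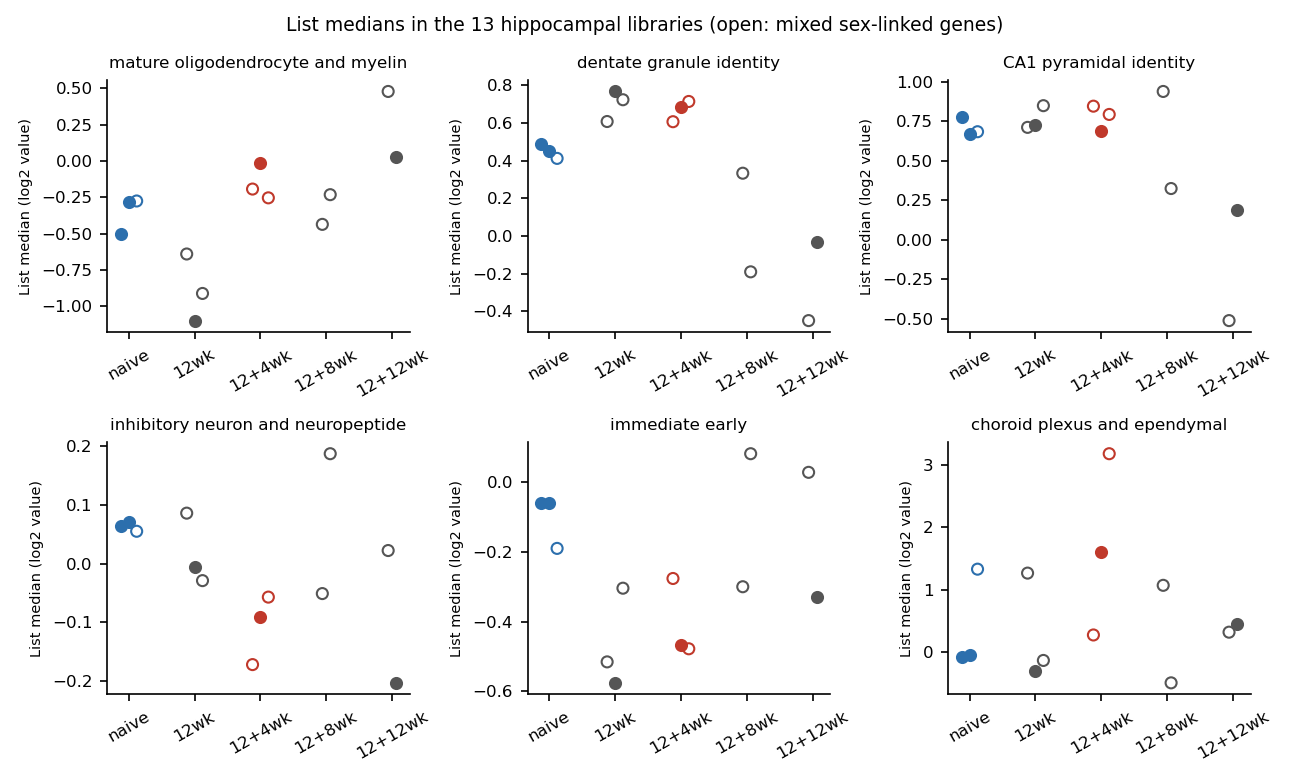
Median of the deposited log2 values of 6 gene lists in each of the 13 hippocampal libraries, by group along the treatment course from naive to 12+12wk. Open symbols are libraries with intermediate sex-linked genes; the dentate list separates the 12+4wk libraries (0.61 to 0.71) from the naive ones (0.41 to 0.49), and the choroid plexus and ependymal list does not.

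The hippocampal difference was set against the same contrast in cortex (3 against 4 libraries) and corpus callosum (2 against 3). A joint fit of the 40 chronic libraries and 17054 genes was used. The labels name no mouse, so this fit treated libraries of different regions as independent. The paper describes dissecting these regions from the brain in the chronic study, so some libraries may share a mouse. Between hippocampus and cortex 0% of genes were called in either direction by limma, with 517 at an unadjusted p below 0.05. In the same fit the hippocampal contrast alone had 0 genes called by limma and 308 at an unadjusted p below 0.05. The 0% between regions thus cannot show whether hippocampus and cortex shared their effects. The difference of effects for Rnf122 was 0.25 ± 0.27, its effect being 0.68 in hippocampus and 0.42 in cortex, and for Plk5 0.20 ± 0.33. In the comparison with callosum 31 genes had a more positive effect in hippocampus (0.182%) and 122 a more negative one (0.715%). The widest of these rested on the callosal side, as for Malat1, a nuclear-retained RNA, at −0.04 in hippocampus and 2.03 in callosum. Leaving out any of the 6 hippocampal libraries left 5 to 11 higher and 41 to 81 lower calls, and quantile normalization gave 341 higher and 363 lower calls, nearly even in direction. For Rnf122 the effects were 0.68 in hippocampus and 0.76 in callosum, and Gimap6 stood at −0.47 in hippocampus and −0.10 in callosum, a difference that was not called (−0.37, adjusted p = 0.504).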

How the data were processed

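RNA was measured by sequencing in the dissected hippocampus of 13 libraries, of which 3 at 12+4 weeks and 3 naive were compared. The authors aligned reads with TopHat2 2.0.13 (builds GRCm38 and mm10 are both named), normalised with DESeq2, whose version is not given in the sources used here, and deposited log2 values centred per gene, with no counts. Per the methods the hippocampal and callosal libraries were sequenced apart from the cortical ones, on another instrument. Of the 21061 rows, 27 names turned into dates were removed, and 17852 genes were kept in which at most 3 of the 13 hippocampal libraries shared the lowest value.

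Groups were compared with limma 3.58.1 (R 4.3.3) as 5 group means with no covariate, with Benjamini-Hochberg adjustment over all genes and a threshold of 0.05. Filters, scalings, weights, covariates, blocks and omitted libraries were varied as alternatives. DESeq2 was not rerun, since no counts were used here. Code was tested on simulated data. The members and gene lists were chosen with earlier results of these data known. Named were up to 10 genes per direction with non-overlapping groups (called first, then lowest p), the 2 members of lowest p in each list, a fixed set of genes, up to 5 genes per direction in each region test, and others said to be chosen after their values were seen; gene models such as Gm or Rik were named only among the first 3. A few genes that the rule would name are not reported here. Members of the blood and sex-linked lists are given as counts or as a library check. Loci are from GENCODE vM21 (GRCm38) for 128 of 131 named genes, and promoters from RefSeq (GRCm38.p6).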

Additional observations from a re-analysis of the deposited data

Results flagged for a closer look

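The genes below had a hippocampal effect of 12+4 weeks against naive that differed from the callosal effect in limma's test of the difference, and they were the 5 of largest difference in each direction and Rian. Malat1 differed by −2.07 (−0.04 in hippocampus and 2.03 in callosum), Col24a1 by −2.12 (−0.30 and 1.82), Igfn1 by −2.21 (−0.57 and 1.64), Robo3 by −2.04 (0.18 and 2.22) and Adam33 by −2.03 (−0.32 and 1.71). On the other side Ndn differed by 0.91 (0.02 and −0.89), Fzd7 by 0.82 (0.33 and −0.49), Dpysl2 by 0.82 (−0.06 and −0.89), Tceal1 by 0.64 (0.03 and −0.60) and Ctu1 by 0.63 (0.20 and −0.43). Rian, named from its list, differed by −0.52 (−0.14 and 0.38). Adjusted p lay between 0.0101 and 0.0472, and 2 callosal libraries stood behind the 12+4wk side. Of these 11 genes 8 lost their call in at least 1 alternative (highest adjusted p between 0.0524 for Tceal1 and 0.133 for Ctu1), and Malat1, Dpysl2 and Robo3 did not.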

How the results depend on the processing

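Rnf122 kept its positive difference in 20 of 20 alternatives (0.64 to 0.76), with adjusted p between 0.00763 and 1 apart from library weights (2.86e-05). The count of 1 higher gene became 0 with only the 6 compared libraries, all 40 libraries, labelled sex as a covariate, intermediate sex-linked status as a covariate (chosen after seeing the data) or those libraries left out (1 library against 2, with 1 residual degree of freedom), and 2 with a length and GC correction (Rnf122 and Plk5). Leaving out 1 library at a time gave 0 to 1 higher genes, with 1 only without 12+4wk replicate 1. Library weights gave 1326 higher and 1604 lower genes, where 12+4wk replicate 2 received a weight of 21.3 and the others 0.461 to 1.67, and the weight estimate did not converge. The replicate numbers did not pair the libraries (correlations of −0.0562, 0.0623 and 0.183 between same-numbered libraries), and a replicate block gave 0 higher genes (Rnf122 adjusted p = 0.279), as did the block with a length and GC correction (0.176).

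Quantile normalization gave 341 higher and 363 lower genes between hippocampus and callosum, and omitted libraries 5 to 11 higher and 41 to 81 lower, where the cause was not tested. Of the list medians 736 values stayed within the spread between replicates and 44 moved further. Of the named genes 8 changed sign in at least 1 alternative, and none of them was called between 12+4 weeks and naive. Malat1 was 0.08065 under quantile normalization, 0.05224 under library weights, 0.05027 with the sex-linked covariate and −0.1416 to 0.0988 with omitted libraries. A230009B12Rik was 0.003892 under quantile normalization, 0.05704 under library weights, 0.007598 under the length and GC correction with or without the block, 0.08907 without the libraries with intermediate sex-linked genes and −0.09643 to 0.05262 with omitted libraries. Under library weights and without those libraries Clec7a was −0.0852 and −0.1307 and Ndn −0.01655 and −0.05487, and without those libraries Tceal1 was −0.01401. With omitted libraries Itgax ran between −0.01317 and 0.3538, Dpysl2 between −0.1397 and 0.02981, Tceal1 between −0.005822 and 0.08233, Cst7 between −0.2925 and 0.1659 and Ndn between −0.01259 and 0.06837. The cause of these sign changes was not tested. With 3 libraries a group and the depth of single libraries unknown, differences of the size of most list medians could not be resolved gene by gene.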

Other observations

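The genes here were chosen after their values were seen, and none passed limma's adjusted threshold. Pituitary hormone genes stood high in naive replicates 1 and 2. Prl, which encodes prolactin, had −0.67, −0.42 and −0.46 in 12+4wk libraries, against 4.21, 1.82 and −0.32 in naive libraries. Gh, the growth hormone gene, had −0.59, −0.35 and −0.05 in 12+4wk libraries, against 2.87, 1.13 and −0.24 in naive libraries, and Pomc, the precursor of corticotropin, had −0.15, −0.02 and −0.42 in 12+4wk libraries, against 0.99, 0.67 and 0.07 in naive libraries. Prl and Pomc had no overlap, while Gh overlapped through naive replicate 3.

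Eps8l1, an actin regulator gene, had −0.58, −0.57 and −0.41 in 12+4wk libraries, against 0.55, 1.15 and 0.71 in naive libraries, and the chemokine gene Cxcl5 had 0.94, 0.87 and 0.72 in 12+4wk libraries, against −0.36, −0.21 and 0.32 in naive libraries.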
